A study of Mus musculus with 12 samples.

Results

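The transcripts of 10 chemokine ligands (Cxcl1, Cxcl2, Cxcl5, Cxcl10, Cxcl12, Cxcl16, Ccl2, Ccl5, Ccl7 and Cx3cl1) were followed by RNA-Sequencing in tumourspheres of mouse mammary tumour cells. They were taken by gene symbol, 10 of the 55573 genes measured, and all 10 were among the 13836 genes that passed the filter on low counts. The tumourspheres came from A1005, A1129 and A1471, which are spindloid (mesenchymal-like) cell lines with the genotype MMTV-Metmt;Trp53fl/+;Cre. By genotype, all libraries, controls included, therefore share an activated Met transgene under the MMTV promoter and a floxed Trp53 allele with Cre. The paper states that the endogenous Met locus becomes amplified in this model, and it describes retained transgene expression for non-spindloid lines. Met counts were not split between transgene and locus here. Each line was treated for 24 h. The vehicle DMSO was the control, and the agents were the Met inhibitor Crizotinib (1 µM), PD173074, which inhibits FGF receptors (1 µM), and the pair of them together (labelled Combo). Each of the 12 combinations of line and treatment had 1 library, so n = 3 cell lines per treatment. A line stands for 1 tumour, and the 4 treatments of a line are paired by that line. The paper compared the treatments to learn which transcripts depend on Met and FGF receptor signalling in cells that form tumourspheres.

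Chemokines are small secreted proteins that attract leukocytes along a concentration gradient by binding G protein-coupled receptors. Cxcl1, Cxcl2 and Cxcl5 bind Cxcr2 and draw neutrophils. Cxcl10 binds Cxcr3 on activated T cells and is a textbook target of interferon. Cxcl12 binds Cxcr4 and the scavenging receptor Ackr3, and is best known as a product of stromal fibroblasts. Cxcl16 and Cx3cl1 are made as membrane-bound proteins that are shed by proteases, and they bind Cxcr6 and Cx3cr1. Ccl2 and Ccl7 recruit monocytes through Ccr2, and Ccl5 recruits T cells and monocytes through Ccr1 and Ccr3. In breast tumours such ligands are produced by tumour cells as well as by the stroma.

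Library totals lay between 13031492 and 17750476 counts, and 3 counts, the floor used here, corresponded to 0.167 to 0.234 CPM (counts per 1000000 counts of the library). The labelled cell type was checked against its markers. Vim, an intermediate filament of mesenchymal cells, reached 1903 to 3204 CPM, and Cdh1, the epithelial cadherin, had at most 9 counts in any library. The luminal keratins on the marker list were present, Krt18 at 53 to 748 counts, Krt8 at 17 to 611 and Krt19 at 0 to 626, and Epcam had at most 29 counts. Krt19 was found mainly in A1005, with a mean of 27.8 CPM there and 0.0321 in A1129. The neural cadherin Cdh2, also on the mesenchymal list, had at most 6. Both inhibited receptors were expressed in every library, Met at 2126 to 8327 CPM and Fgfr1 at 218 to 337 CPM.

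Markers of leukocytes, the other main source of several of these ligands, were uneven between the lines. The summed level of the 10 listed leukocyte markers ranged from 24.8 to 86.0 CPM with DMSO, 22.4 to 90.6 with Crizotinib, 18.4 to 60.7 with PD173074 and 15.1 to 61.3 with the combination. Lyz2 had 0 counts in all 12 libraries, Adgre1 had at most 1 count, and Itgam and Cd3e at most 2. Csf1r had at most 5 counts and Itgax at most 14. Ptprc (CD45) averaged 16.4 CPM in A1005 against 0.0673 in A1129 and 0.0523 in A1471. Cd68 averaged 18.9, 6.16 and 6.0 CPM, and Cd14 39.2, 20.7 and 14.0 CPM, in the same order of lines. A1005 was thus the highest line for Ptprc, Cd68 and Cd14 and is also the highest for several ligands below. The part of these markers in the line differences was not tested.

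With DMSO, the 3 most abundant ligands per kilobase of exon were Cxcl1, Ccl2 and Cxcl5. On the RPKM scale, which is CPM divided by the exon length in kilobases, mean levels over the 3 lines were 162 for Cxcl1, 89.9 for Ccl2, 72.7 for Cxcl5, 17.9 for Ccl7 and 13.5 for Cx3cl1. Lower levels were found for Cxcl2 (6.18), Ccl5 (2.61), Cxcl16 (1.87), Cxcl10 (1.48) and Cxcl12 (0.164). The order held in outline only, because the lines differed by more than the neighbours in it. In A1005, Cxcl1 (276 RPKM), Ccl2 (252) and Cxcl5 (182) lay close together. In A1129 and A1471 Ccl2 reached 13.9 and 3.34 RPKM, against 143 and 67.3 RPKM for Cxcl1. Cxcl1 stood first in all 3 lines, and the ranges over lines of neighbours in the order of the means overlapped, except those of Cxcl10 and Cxcl12.

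**Figure D1:**
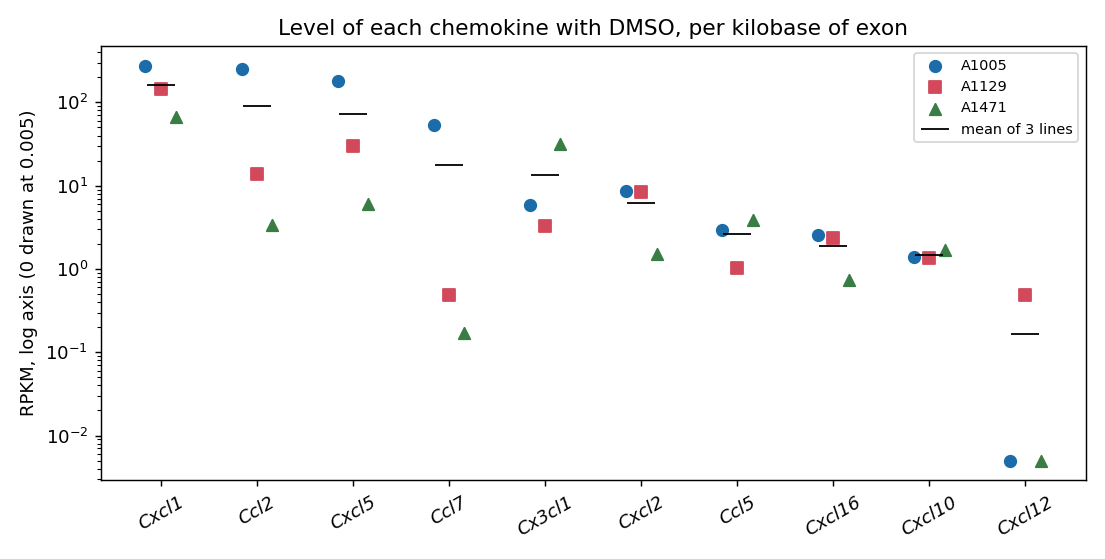
Level of the 10 chemokine transcripts with DMSO in RPKM on a log axis, 1 point per cell line, with the mean of the 3 lines as a horizontal mark and libraries with 0 counts drawn at 0.005. Cxcl1 was highest in each line, whereas Ccl2 ran from 3.34 to 252 RPKM and Ccl7 from 0.172 to 53.0 RPKM across the lines.

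The lines differed in the level of several ligands. Across the 4 treatments, A1005 and A1129 had CPM ranges that did not overlap for 7 of the 10 ligands (38.2% of all genes tested), A1005 and A1471 for 6 of 10 (36.4%), and A1129 and A1471 for 3 of 10 (25.0%). Cxcl10 was the 1 ligand whose ranges overlapped between all 3 lines. The counts are a description, since the 4 libraries of a line differ in treatment.

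A1005 was the high line for Ccl2 and Ccl7, neighbouring monocyte attractants on chromosome 11. Ccl2 ran from 241 to 573 CPM in A1005, from 14.4 to 23.0 CPM in A1129 and from 3.80 to 51.5 CPM in A1471. Ccl7 ran from 42.5 to 145 CPM in A1005, with at most 16 counts in an A1129 library and at most 23 in an A1471 library. The lowest A1005 library was thus well above each library of the other lines for both genes. Cxcl1 and Cxcl5 were likewise highest in A1005, with lowest values of 366 and 264 CPM, above the highest values elsewhere of 268 and 83.2 CPM.

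A1471 was the high line for Cx3cl1, the membrane-bound ligand also called fractalkine. Its level was 123 to 270 CPM in A1471, 21.5 to 71.9 CPM in A1005 and 9.66 to 23.1 CPM in A1129. A1129 was the line with Cxcl12. That gene had 61, 38, 167 and 1097 counts in A1129 with DMSO, Crizotinib, PD173074 and the combination, but at most 4 counts in an A1005 library and at most 1 in an A1471 library. Ccl5 was lowest in A1129, at 0.358 to 0.987 CPM, against 2.81 to 11.1 CPM in A1005 and 3.09 to 18.6 CPM in A1471.

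**Figure D2:**
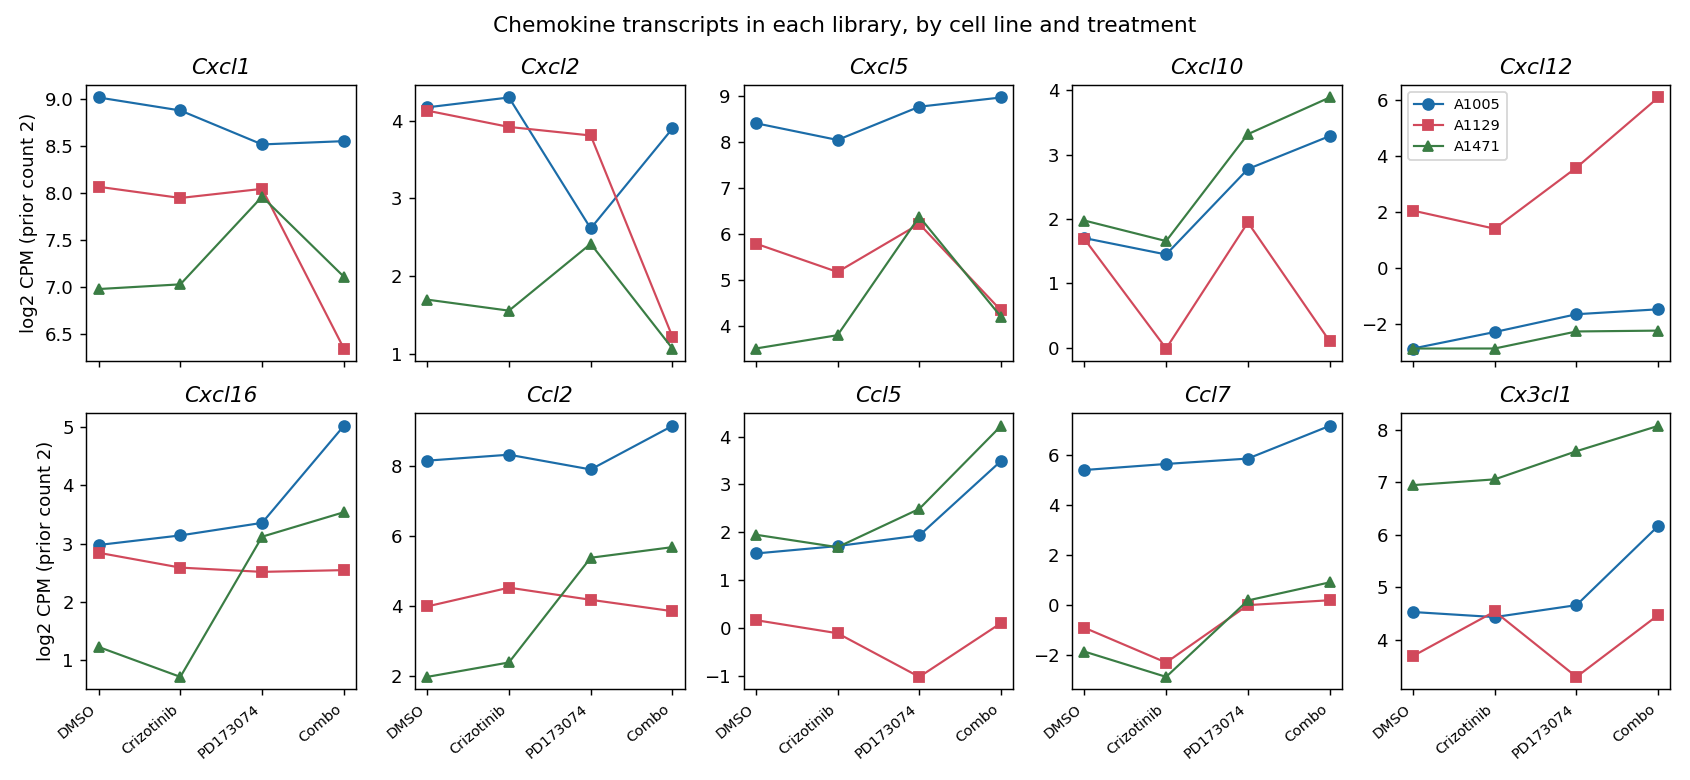
Log2 CPM (prior count 2) of each ligand in the 12 libraries, with treatments on the horizontal axis, 1 line and marker per cell line, and a separate vertical scale for each ligand. Cxcl12 lay high in A1129 and Cx3cl1 in A1471 under all 4 treatments, and A1005 lay highest for Cxcl1, Cxcl5, Ccl2 and Ccl7.

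The make-up of the ligand transcripts differed accordingly. Cxcl1, Cxcl5 and Ccl2 together made up 90.5% of the summed RPKM of the 10 ligands in A1005, 91.5% in A1129 and 66.1% in A1471 with DMSO. Cx3cl1 alone held 27.1% in A1471, against 0.744% in A1005 and 1.59% in A1129. With the combination, the shares of Cxcl1, Cxcl5 and Ccl2 together were 80.7%, 77.3% and 55.9% in A1005, A1129 and A1471. In A1129 Cxcl12 held 9.73% of the sum with the combination and 0.241% with DMSO, while the share of Ccl7 in A1005 was 15.1% and 6.75%. The summed level of the 10 ligands was 1734 CPM with the combination and 1242 with DMSO in A1005, 526 and 278 in A1471, and 218 and 385 in A1129. The sum was thus higher with the combination in A1005 and A1471 and lower in A1129.

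**Figure D3:**
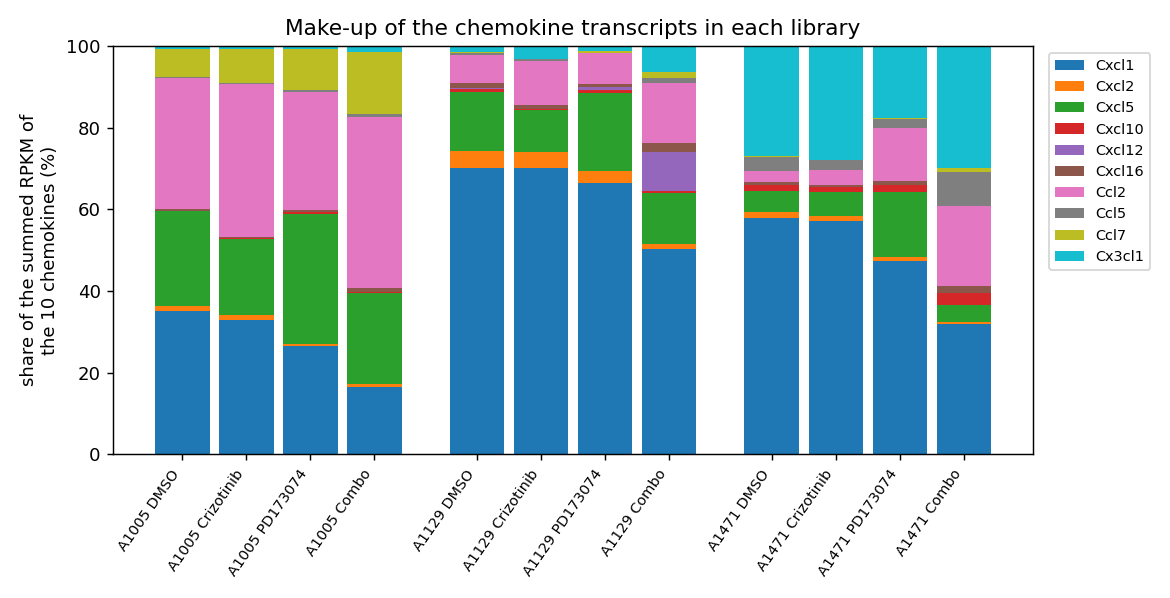
Share of each ligand in the summed RPKM of the 10 ligands (%), stacked to 100 for each of the 12 libraries grouped by line. Cxcl1 held 70.1% in A1129 with DMSO and 50.2% with the combination, and Ccl2 held 41.8% in A1005 with the combination against 32.2% with DMSO.

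Within a line, each treatment had 1 library, so the changes in this and the following paragraphs compare 2 libraries and their 95% intervals (exact, from the counts) cover counting error only. The comparisons with DMSO share their DMSO libraries. The combination library was higher than the DMSO library for 8 of the 10 ligands in A1005 and for 9 of 10 in A1471. In A1129 it was higher for 3 of 10. Cxcl12 is included with 4 counts against 0 in A1005 and 1 against 0 in A1471, near or below the floor. Such counts are a description, as the share of all genes higher within a line is not given here or for the gene lists below.

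Ccl2 had 3680 counts with DMSO and 10309 with the combination in A1005, 55 and 683 in A1471, and 240 and 229 in A1129. On the CPM scale the ratio was 1.995 (95% interval 1.92 to 2.07) in A1005, 13.6 (10.3 to 18.2) in A1471 and 0.909 (0.755 to 1.09) in A1129. Only the interval of A1129 contained equal levels.

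Ccl7 was at 42.5 CPM with DMSO and at 145 with both inhibitors in A1005, a ratio of 3.42 (3.12 to 3.76). In A1471 it had 2 counts with DMSO and 23 with the combination (ratio 12.6, 3.10 to 110), and in A1129 6 and 16 counts (2.54, 0.944 to 7.93). All 3 lines were therefore higher with the combination, but the A1129 counts did not exclude equal levels.

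Under DMSO and the combination, Ccl5 was at 2.81 and 11.1 CPM in A1005, at 3.73 and 18.6 in A1471, and at 0.987 and 0.940 in A1129. The ratios were 3.96 (2.76 to 5.81) in A1005 and 4.98 (3.69 to 6.81) in A1471, with 15 counts in each of the A1129 libraries. Cxcl16 gave 7.73 and 32.2 CPM in A1005, 2.21 and 11.5 in A1471, and 7.04 and 5.70 in A1129, with DMSO and the combination. Its ratios were 4.16 (3.36 to 5.21), 5.19 (3.53 to 7.85) and 0.810 (0.606 to 1.08), so that Ccl5 and Cxcl16 were each higher in A1005 and A1471 only.

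Cxcl10 had similar levels in the 3 lines with DMSO, at 3.12 CPM in A1005, 3.09 in A1129 and 3.80 in A1471. With the combination it was at 9.62 CPM in A1005 (ratio 3.08, 2.17 to 4.46) and 14.6 CPM in A1471 (3.85, 2.84 to 5.30). In A1129 it was at 0.940 CPM, 3.29-fold lower, from 15 counts against 47. The change in A1129 was thus opposite to that in both other lines, beyond counting error.

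Cx3cl1 was the 1 ligand higher with the combination beyond counting error in all 3 lines, a pattern held by 20.5% of all genes tested. It went from 23.0 to 71.9 CPM in A1005 (ratio 3.13, 2.76 to 3.57), from 12.8 to 22.1 in A1129 (1.73, 1.45 to 2.07) and from 123 to 270 in A1471 (2.19, 2.07 to 2.32). Because A1471 with DMSO was above A1005 and A1129 with the combination, the groups still overlapped. No ligand had combination libraries that were all above the DMSO libraries in CPM (13.8% of all genes) or all below them (16.1%).

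The neutrophil attractants are Cxcl1, Cxcl2 and Cxcl5. Cxcl1 had 6630 counts with DMSO and 6750 with the combination in A1005, 4075 and 1298 in A1129, and 1826 and 1830 in A1471. In CPM it was 1.38-fold lower in A1005 and 3.30-fold lower in A1129 with the combination, and 1.10-fold higher in A1471 (1.02 to 1.17). Cxcl2 was 7.92-fold lower in A1129, at 17.4 and 2.19 CPM from 264 and 35 counts. It was at 17.9 and 14.8 CPM in A1005, and at 3.11 and 1.96 in A1471. Cxcl5 was 1.47-fold higher in A1005 (1.42 to 1.53) and 1.62-fold higher in A1471 (1.32 to 1.99), but 2.75-fold lower in A1129. All 3 were thus lower with the combination in A1129.

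Cxcl12 with the combination was 17.1-fold higher in A1129 (13.2 to 22.6), from 4.01 to 68.8 CPM. In A1005 it had 0 counts with DMSO and 4 with the combination, and in A1471 0 and 1, which are near or below the floor, so no ratio was formed. A1129 was the line in which the other CXC ligands were lower (Cxcl1, Cxcl2, Cxcl5 and Cxcl10) or did not change beyond counting error (Cxcl16).

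Changes in opposite directions beyond counting error in at least 2 lines were found for 3 of the 10 ligands with the combination (Cxcl1, Cxcl5 and Cxcl10), against 9.39% of all genes. With PD173074 they were found for 4 of 10 (Cxcl1, Cxcl2, Ccl2 and Cx3cl1), against 7.35% of all genes.

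**Figure D4:**
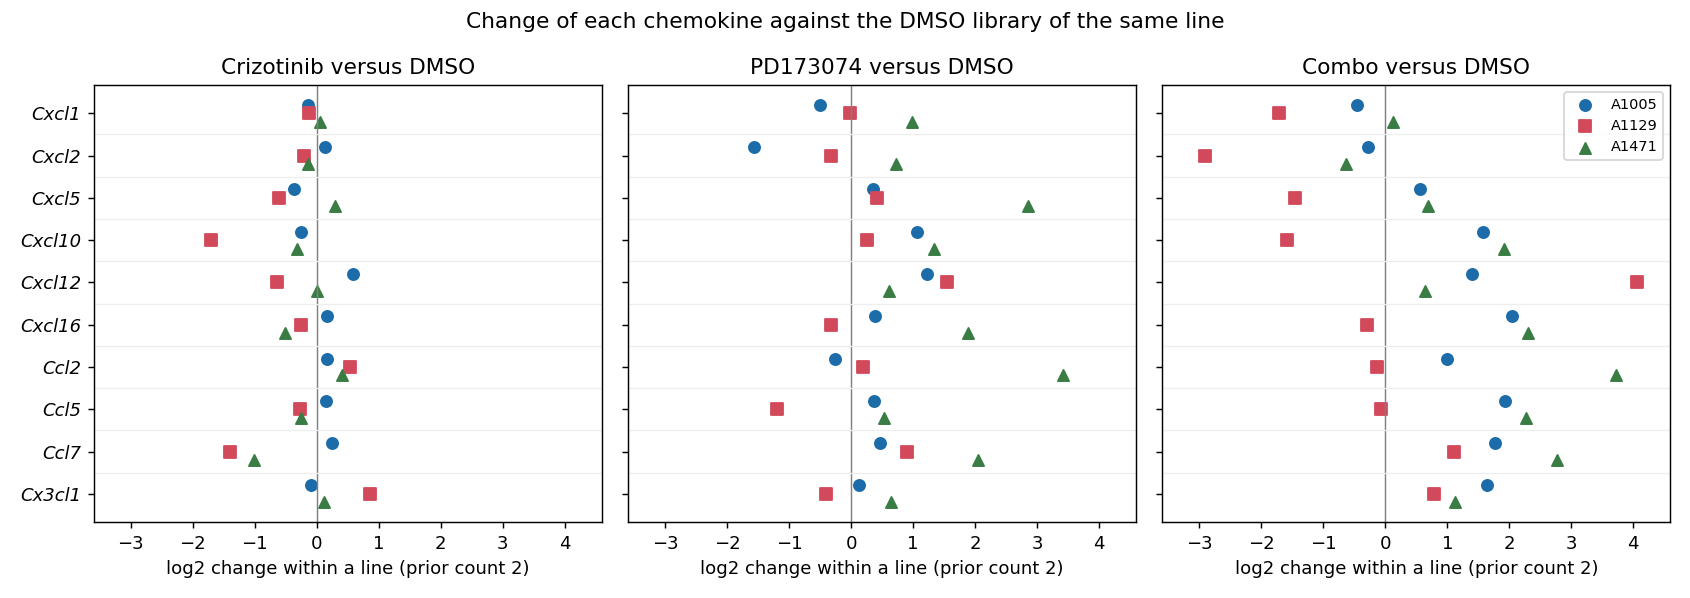
Log2 change of each ligand against the DMSO library of its own line (prior count 2), for Crizotinib, PD173074 and the combination, 1 point per line. With the combination, A1129 lay at -2.91 for Cxcl2 and at 4.05 for Cxcl12, and with PD173074 A1471 lay at 3.41 for Ccl2.

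PD173074 alone was followed by higher ligand levels mainly in A1471. There Ccl2 had 55 counts with DMSO and 586 with PD173074, a ratio of 11.0 (8.32 to 14.8). Cxcl5 was 7.34-fold higher (6.23 to 8.70), Cxcl16 3.87-fold (2.60 to 5.90), Cxcl10 2.59-fold (1.88 to 3.60) and Cxcl1 1.98-fold (1.87 to 2.09). In A1005 Cxcl2 was 2.99-fold lower with PD173074, with 229 counts against 99. In A1129 Cxcl12 was 2.98-fold higher (2.21 to 4.06).

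Cxcl5 was the 1 ligand higher with PD173074 beyond counting error in all 3 lines (7.03% of all genes). Its ratios were 1.28 (1.24 to 1.33) in A1005, 1.34 (1.23 to 1.47) in A1129 and 7.34 in A1471. No ligand had PD173074 libraries all above (3.35% of genes) or all below (3.07%) the DMSO libraries.

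Crizotinib alone gave smaller differences. Cxcl10 was the 1 ligand whose Crizotinib libraries, at 2.60, 0.859 and 3.02 CPM in A1005, A1129 and A1471, were all below the DMSO libraries (0.853% of genes), and 0 of 10 were all above (0.838%). Its ratio excluded equal levels in A1129 only, at 3.60-fold lower from 13 counts against 47. Also in A1129, Cx3cl1 was 1.81-fold higher (1.51 to 2.17), Ccl2 1.46-fold higher (1.23 to 1.72) and Cxcl5 1.54-fold lower.

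Between the combination and PD173074 alone, Cx3cl1 was again the 1 ligand higher beyond counting error in all 3 lines (16.1% of all genes). Cxcl2, Cxcl5, Cxcl10 and Ccl2 moved in opposite directions between lines in that comparison (9.67% of genes). Against Crizotinib alone, Ccl7 was the 1 ligand higher with the combination beyond counting error in all 3 lines (19.5% of genes). Its counts with Crizotinib and the combination were 736 and 2615 in A1005, 1 and 16 in A1129, and 0 and 23 in A1471. The Crizotinib counts of A1129 and A1471 were thus below the floor. Cxcl5 and Ccl2 moved in opposite directions between lines against Crizotinib (10.2% of genes).

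The treatments were then tested across the 3 lines. In the unpaired edgeR quasi-likelihood test, the design of the study's methods, 0 of the 10 ligands passed an adjusted p of 0.05 for the combination against DMSO, where 14.4% of all genes did. Adjusted p-values of the 10 ranged from 0.219 to 0.908, and 0 had an unadjusted p under 0.05. DESeq2 also called 0 (21.9% of all genes), with 1 ligand at an unadjusted p under 0.05 and 2 with no adjusted p. These 2 were Ccl7 and Cxcl12, which had no p from DESeq2 in any comparison and so could not be called. In limma-voom 0 were called (13.9% of all genes), with 0 at an unadjusted p under 0.05. The smallest adjusted p was that of Cxcl16, whose levels were 5.66 ± 3.01 CPM with DMSO and 16.5 ± 13.9 CPM with the combination (SD, n = 3) and whose log2 fold change was 1.54 ± 0.77 (SE). For Ccl5 the levels were 2.51 ± 1.40 and 10.2 ± 8.85 CPM, with a log2 fold change of 2.02 ± 1.12 (adjusted p = 0.270). The median log2 fold change of the 10 ligands was 1.26, and that of all genes 0.02.

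Because the lines pair the libraries, the same test was made with the cell line as a block. The combination then gave 5 of 10 ligands as higher and 0 as lower, with 54.8% of all genes called in that fit. They were Cxcl12 (log2 fold change 3.95 ± 0.42, adjusted p = 5.13e-05), Ccl5 (1.70 ± 0.40, 0.00454), Ccl7 (1.90 ± 0.45, 0.00529), Cx3cl1 (1.23 ± 0.31, 0.00712) and Cxcl16 (1.42 ± 0.53, 0.0419). The shares of all genes called, here and below, count both directions. Counted so, the share of ligands called was close to that of all genes. Of the 13836 genes, 3953 were called higher and 3625 lower, whereas all 5 ligands were higher. Ccl2 (1.38 ± 0.70, adjusted p = 0.119), Cxcl1 (-0.63 ± 0.34, 0.133), Cxcl10 (0.93 ± 0.51, 0.146), Cxcl2 (-1.06 ± 0.59, 0.154) and Cxcl5 (-0.05 ± 0.49, 0.939) did not pass.

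The blocked calls rested unequally on the lines. Cx3cl1 and Ccl7 passed in each of the 3 fits with the block that left out 1 line. Cxcl12 passed without A1005 and without A1471, and without A1129 it had too few counts to be tested. Ccl5 and Cxcl16 passed without A1129, and neither passed without A1005 or without A1471. Without A1129, Cxcl10 passed as well, and without A1005, Cxcl2 passed as lower with a log2 fold change of -1.96.

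**Figure D5:**
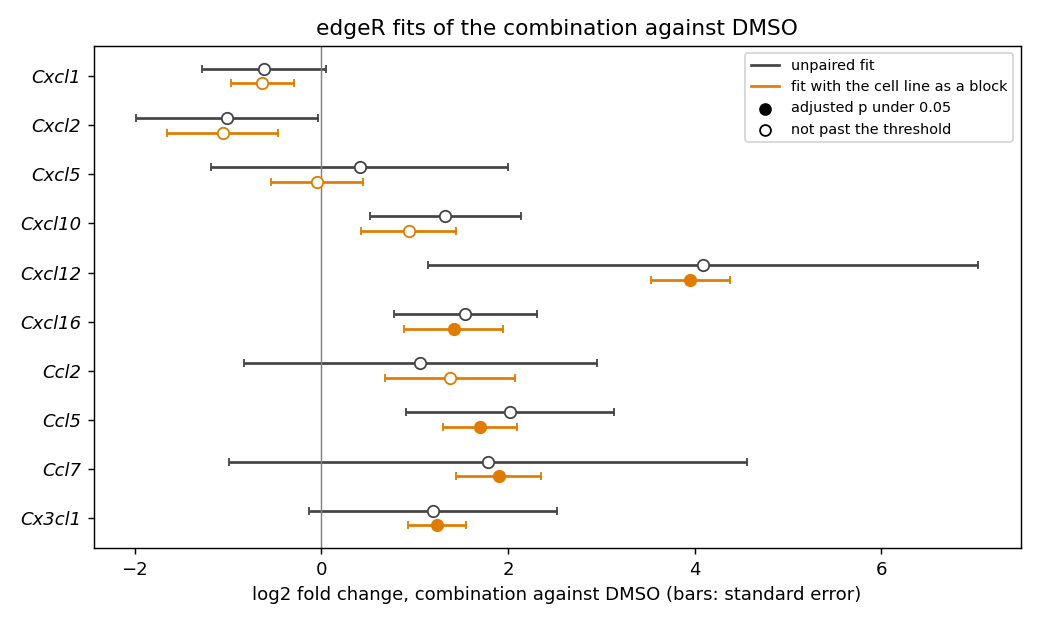
Log2 fold change of the combination against DMSO for each ligand from edgeR with its standard error, in the unpaired fit (grey) and in the fit blocked by line (orange), filled where the adjusted p was under 0.05. For Cxcl12 the estimates were 4.09 and 3.95, with a standard error of 2.95 without the block and 0.42 with it, and for Cxcl5 they were 0.41 and -0.051, on opposite sides of 0.

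Neither single inhibitor gave a call among the ligands. For Crizotinib against DMSO, 0 of 10 passed in the unpaired edgeR fit and 0 with the block (0.0% of all genes in both), with 0 at an unadjusted p under 0.05 in either. For PD173074, 0 of 10 passed in the unpaired fit (0.0% of all genes) and 0 with the block (2.14%), where 2 had an unadjusted p under 0.05. DESeq2 likewise gave 0 with Crizotinib (0.00723% of all genes) and with PD173074 (0.123%), and limma-voom 0 with either (0.0%). DESeq2 gave no adjusted p for 2 of the 10 ligands with Crizotinib and for 4 with PD173074, so these could not be called. The smallest adjusted p with PD173074 and the block was that of Cxcl12 (log2 fold change 1.75 ± 0.43, adjusted p = 0.0680), followed by Cxcl5 (1.23 ± 0.50, 0.268).

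For the combination against Crizotinib alone, edgeR called 0 of 10 without the block (13.2% of all genes), with Cxcl10 at an unadjusted p of 0.0389. With the block it called 6 of 10, all higher (53.4% of all genes, 3797 higher and 3592 lower). These 6 were the 5 named against DMSO and Cxcl10 (log2 fold change 1.77 ± 0.52, adjusted p = 0.0162). Against PD173074 alone the counts were 0 (4.77% of all genes) and 3, all higher (39.8%, 2714 genes higher and 2792 lower). Those 3 were Cxcl12 (2.20 ± 0.38, 0.00184), Ccl5 (1.58 ± 0.38, 0.00891) and Cx3cl1 (1.02 ± 0.31, 0.0244). In both comparisons the Cxcl12 call rested on A1129. There it had 38 counts with Crizotinib, 167 with PD173074 and 1097 with the combination. The counts in the same order were 1, 3 and 4 in A1005 and 0, 1 and 1 in A1471. DESeq2 called 0 against Crizotinib (21.2% of all genes) and 0 against PD173074 (11.2%). Limma-voom also called 0 in both (13.4% and 4.74% of all genes). With the block and 1 line left out, Ccl5 and Cx3cl1 against PD173074 did not pass without A1005 (adjusted p = 0.0601 and 0.132) or without A1471 (0.0843 and 0.0524), nor did Cxcl10 against Crizotinib (0.0914 and 0.165). Against Crizotinib, Cx3cl1 and Cxcl16 did not pass without A1005 or without A1471 either, and Ccl5 did not pass without A1471.

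Whether the log2 change with both inhibitors departed from the 2 single changes added up was tested in the same fits. Unpaired, 0 of 10 ligands departed (0.918% of all genes). With the block 1 did (16.2%), Cxcl12, by 2.78 ± 0.60 on the log2 scale (adjusted p = 0.0146). It rested on A1129, where Cxcl12 had 61 counts with DMSO, 38 with Crizotinib, 167 with PD173074 and 1097 with both.

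Of the ligands, 4 lie on chromosome 5 and 4 on chromosome 11 (mm10, GENCODE annotation). On chromosome 5, Cxcl5, Cxcl1, Cxcl2 and Cxcl10 span 1.59 Mb, and Cxcl1 and Cxcl2 lie within 0.0147 Mb. Cxcl1 and Cxcl2 followed each other over the 12 libraries (Pearson r = 0.853 of log2 CPM, and 0.905 after centring each line), whereas Cxcl1 and Cxcl10 did not (0.194 and 0.322). On chromosome 11, Ccl2 and Ccl7 lie within 0.0120 Mb and had r = 0.952, or 0.728 after centring each line. These coefficients describe 12 libraries from 3 lines that share their line and their depth.

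The stretches just upstream of the starts of Cxcl1, Cxcl2, Cxcl10 and Cxcl12 are shown because the first pair moved together, Cxcl10 followed neither, and Cxcl12 moved the other way in A1129. They come from RefSeq (build GRCm38.p6, the same assembly as mm10), whose promoter table matched 5 of the 10 ligands by symbol. Each is written in the direction of transcription, without bases that GENCODE places inside the gene, with matches in capitals. The motifs searched on both strands were the kB consensus (the site bound by NF-kB), TGANTCA (AP-1), the core of interferon response elements (2 GAAA runs 2 bases apart, called ISRE core here) and TATAAA.
Cxcl1, chr5:90890995-90891240, plus strand: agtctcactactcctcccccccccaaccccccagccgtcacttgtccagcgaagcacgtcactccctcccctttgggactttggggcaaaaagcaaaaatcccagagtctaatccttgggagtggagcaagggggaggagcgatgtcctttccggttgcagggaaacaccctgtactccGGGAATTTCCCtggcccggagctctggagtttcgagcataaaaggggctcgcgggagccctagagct
Cxcl2, chr5:90903649-90903870, plus strand: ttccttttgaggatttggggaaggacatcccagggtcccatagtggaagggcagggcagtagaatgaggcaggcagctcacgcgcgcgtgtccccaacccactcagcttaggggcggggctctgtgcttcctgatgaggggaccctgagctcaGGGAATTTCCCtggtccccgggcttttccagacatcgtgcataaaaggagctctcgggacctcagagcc
Cxcl10, chr5:92348890-92349139, minus strand: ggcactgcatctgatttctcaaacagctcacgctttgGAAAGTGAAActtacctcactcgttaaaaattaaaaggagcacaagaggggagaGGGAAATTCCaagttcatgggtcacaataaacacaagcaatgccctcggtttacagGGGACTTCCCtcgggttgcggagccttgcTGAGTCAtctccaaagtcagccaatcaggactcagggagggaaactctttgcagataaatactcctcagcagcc
Cxcl12, chr6:117168285-117168534, plus strand: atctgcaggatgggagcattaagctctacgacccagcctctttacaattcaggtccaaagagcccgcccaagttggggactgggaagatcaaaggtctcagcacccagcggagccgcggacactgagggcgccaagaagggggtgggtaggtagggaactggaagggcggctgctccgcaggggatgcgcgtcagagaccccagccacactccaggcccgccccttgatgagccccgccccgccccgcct

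The run GGGAATTTCCC stands in both Cxcl1, 71 to 61 bases before the RefSeq start, and Cxcl2, 97 to 87 bases before it, and holds 2 overlapping kB matches, 1 on each strand. In Cxcl10 the capitals mark, in order, an ISRE core match at 213 to 204 bases before the start, kB matches at 159 to 150 and 103 to 94, and TGAGTCA at 74 to 68. The Cxcl12 window held none of the 4 motifs. Among 32851 RefSeq promoters of 250 bases, 3.90% held the kB consensus, 6.75% TGANTCA, 2.98% the ISRE core and 12.4% TATAAA. A match is a run of letters and was not tested as a site.

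Genes that act in the same pathways were counted from lists. Of the 27 other chemokine ligands listed, 10 were tested, and with the combination 0 passed in the unpaired edgeR fit (14.4% of all genes), while 3 passed as higher and 2 as lower with the block (54.8% of all genes). Cxcl11, which shares the receptor Cxcr3 with Cxcl10, gave DMSO counts of 3 in A1005, 12 in A1129 and 6 in A1471, and combination counts of 120, 2 and 116 (log2 fold change 3.40 ± 1.36, adjusted p = 0.129, and 0.0247 with the block). Like Cxcl10 it was higher in A1005 and A1471 and lower in A1129, and it was the gene with the profile closest to that of Cxcl10 (r = 0.936 over 12 libraries). Ccl9, a monocyte attractant, had 129 counts with DMSO, 727 with PD173074 and 2560 with the combination in A1005, and at most 30 in any library of the other lines (adjusted p = 0.438, and 1.17e-05 with the block). Ccl27a and Ccl20 had adjusted p-values of 0.175 and 0.532 in the unpaired fit, and the former passed with the block (log2 fold change 0.87, adjusted p = 0.0158).

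The receptors of these ligands were mostly at or near 0. Of 22 receptors listed, 4 were tested. With the combination against DMSO, 0 passed as higher and 1 as lower in the unpaired fit (14.4% of all genes). With the block 2 passed as higher and 2 as lower (54.8% of all genes). Cxcr1, Ackr1, Ccr2 and Ccr3 had 0 counts in all 12 libraries, Cxcr2 had at most 8 counts, Cxcr6 at most 15 and Cx3cr1 at most 14.

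Cxcr3, the receptor of Cxcl10, was the 1 receptor called in the unpaired fit. Its counts in A1005, A1129 and A1471 were 9, 34 and 23 for DMSO, 17, 56 and 41 for Crizotinib, 1, 4 and 2 for PD173074, and 1, 0 and 0 for the combination. In CPM the libraries with the combination lay below those with DMSO (16.1% of all genes), as did those with PD173074 (3.07%), and the adjusted p for the combination against DMSO was 0.00554.

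Ackr3, the receptor that takes up Cxcl12, was the most abundant of the list with a mean of 59.4 CPM. Its level with DMSO and the combination was 75.1 and 181 CPM in A1005, 22.4 and 42.9 in A1129, and 17.96 and 40.29 in A1471, so each line was higher with the combination (log2 fold change 1.198 ± 0.98, adjusted p = 0.476, and 1.01e-04 with the block). Cxcr4, the signalling receptor of Cxcl12, gave DMSO counts of 0 in A1005, 12 in A1129 and 14 in A1471, and combination counts of 4, 39 and 51 (adjusted p = 0.511, and 0.0266 with the block). Ccr1, a receptor of Ccl5 and Ccl7, was found mainly in A1005, with 60 counts with DMSO and 1 with the combination (adjusted p = 0.218, and 3.69e-04 with the block).

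Genes of the NF-kB pathway, which drives many chemokine genes in response to inflammatory signals, were counted next. Of 18 tested, 5 passed as higher and 0 as lower with the combination in the unpaired edgeR fit (14.4% of all genes), and 13 and 1 with the block (54.8% of all genes). The subunit gene Relb went from 28.95 ± 5.001 to 68.5 ± 6.13 CPM (log2 fold change 1.24 ± 0.16, adjusted p = 0.00135). The feedback inhibitors Tnfaip3, Tnip1 and Nfkbie had log2 fold changes of 2.17, 1.17 and 2.45 (adjusted p = 0.00737, 0.0385 and 0.0418). These 4 had the smallest p of the list. Over the whole list, the log2 change within a line was above 0 for 17 of 18 genes in A1005, and for 16 in each of A1129 and A1471. The median log2 fold change of the list was 0.82.

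Of 20 genes of interferon signalling and its targets, 7 passed as higher and 0 as lower in the unpaired fit (14.4% of all genes), and 16 and 0 with the block (54.8% of all genes). Ddx58 (the RNA sensor RIG-I) went from 29.5 ± 3.83 to 85.2 ± 9.85 CPM (log2 fold change 1.53 ± 0.20, adjusted p = 0.00154). Gbp2, a guanylate-binding protein induced by interferon, Ifit3 and Stat2 had log2 fold changes of 3.71, 2.78 and 1.84 (adjusted p = 0.0119, 0.0131 and 0.0177). These 4 had the smallest p of the list. Over the whole list, the log2 change within a line was above 0 for 20 of 20 genes in A1005 and in A1471, and in A1129 for 12, with 8 below 0. The median of the list was 1.74.

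Of 11 tested genes that shed, cleave or bind chemokines or act on their mRNA, 2 passed as higher and 0 as lower in the unpaired fit (14.4% of all genes), and 4 and 1 with the block (54.8% of all genes). Zfp36l1, which promotes decay of AU-rich mRNAs, went from 70.2 ± 4.54 to 145 ± 45.0 CPM (log2 fold change 1.05, adjusted p = 0.0156). Mmp14, a membrane-bound metalloprotease, went from 118 ± 43.0 to 523 ± 416 CPM (2.14, 0.0492). Adam10, a sheddase of Cx3cl1 and Cxcl16, was at 341 ± 33.5 and 464 ± 103 CPM (0.44, 0.127, and 0.0405 with the block). Zfp36 was at 39.1 ± 22.4 and 63.4 ± 59.2 CPM (0.70, 0.568). Across all genes tested the median log2 fold change with the combination was 0.02, against 0.44 for this list and 0.43 for the other ligands.

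Some values carry a limit from the annotation. Cxcl16 shares 552 exon bases with Zmynd15 on the opposite strand, and Cxcl10 shares 133 with Art3. The strand setting of the counting is not given in the sources used here, so such reads may not be assigned to 1 gene. Zmynd15 had at most 84 counts and Art3 had 0 in all libraries. With DMSO and the combination, Zmynd15 had 9 and 84 counts in A1005, 9 and 13 in A1129, and 2 and 15 in A1471. The part of shared reads in the Cxcl16 values was not tested. Of the stretches of 50 bases in Cxcl2, 5.84% occur also in Cxcl3, which had at most 239 counts.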

How the data were processed

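RNA was sequenced on a NextSeq500 instrument. The deposited table holds raw counts of reads per Ensembl gene, which the authors made from 12 libraries; the submitters' processing notes name bcl2fastq, STAR, HTSeq and the mouse build mm10. The annotation release and strand setting are not given in the sources used here. Treatment and line came from the labels.

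Counts were filtered (filterByExpr, minimum count 10, minimum total 15), scaled by TMM and tested with edgeR 4.0.16 in R 4.3.3 (quasi-likelihood, unpaired, all 12 libraries, Benjamini-Hochberg over 13836 genes, threshold 0.05). CPM used TMM-scaled library sizes, log2 CPM a prior count of 2, and RPKM the GENCODE exon length. Ratios within a line have exact 95% intervals. Alternatives were DESeq2 1.42.0, limma-voom (limma 3.58.1), a block for the line, other scalings and filters, and leaving out each line. Libraries of the same line deviated together from their group means (r = 0.766 to 0.962 over 18 pairs). The fits were also run on simulated counts in which the combination had the same effect in every line. That setting does not cover effects that differ between lines, and no call rests on it. The ligands, gene lists and tests were chosen with earlier results of these data known. The genes named are the 10 ligands, the 4 genes of each list with the smallest p for the combination against DMSO, receptors of the ligands, Met, Fgfr1, the genes closest in profile to each ligand, and markers from the cell type lists, of which those printed were picked after their values were seen. Receptors at or near 0, Zmynd15, Art3 and Cxcl3 were added after their values were seen. As no molecular identifiers are named, intervals and floors cover counting error only, and nothing says that a line was cultured more than once per treatment.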

Additional observations from a re-analysis of the deposited data

Results flagged for a closer look

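The 3 lines, each with 1 library per treatment, moved in opposite directions beyond counting error for 7 pairs of a ligand and a treatment. The difference between the lines was not tested in any of them, since a line had no second library. The values are the highest minus the lowest log2 change against DMSO among the 3 lines. With the combination it was 1.85 for Cxcl1, 2.14 for Cxcl5 and 3.50 for Cxcl10, in each case with A1129 lowest. With PD173074 it was 1.48 for Cxcl1, 2.28 for Cxcl2 and 3.66 for Ccl2, with A1471 highest and A1005 lowest, and 1.04 for Cx3cl1, with A1471 highest and A1129 lowest. Of all genes tested, 9.39% showed such opposite changes with the combination and 7.35% with PD173074.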

How the results depend on the processing

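The count of ligands called depended on the cell line as a replicate block. It was 0 in all 6 comparisons of the unpaired fit, and with the replicate block 5 for the combination against DMSO, 6 against Crizotinib, 3 against PD173074 and 1 for the departure from additivity. Leaving out each line in turn with the block gave 4, 5 and 3 against DMSO (without A1005, A1129 and A1471), 4, 5 and 2 against Crizotinib, 3, 2 and 1 against PD173074, and 1, 0 and 0 for the departure, where Cxcl12 had an adjusted p of 0.0721 without A1471 and could not be tested without A1129. All these calls were higher, except that without A1005 Cxcl2 was lower in the first 3 comparisons and Cxcl5 against PD173074. The shares of all genes called were 50.3, 40.8 and 36.8% against DMSO, 48.2, 41.9 and 34.8% against Crizotinib, 34.9, 17.1 and 21.0% against PD173074, and 12.4, 3.6 and 3.02% for the departure. Leaving out each line without the block gave 0 to 1 against Crizotinib, where Ccl7 passed without A1005, and 0 in the other comparisons. DESeq2, limma-voom, other scalings, no filter and the groups compared alone each called 0, where DESeq2 gave no p for Ccl7 and Cxcl12. Limma-voom called 13.9% of all genes against DMSO, 13.4% against Crizotinib, 4.74% against PD173074 and 0.976% for the departure.

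Of the 18 fold changes followed, 2 changed sign. Cxcl5 with the combination against DMSO was 0.41 in the unpaired fit, -0.051 with the block and -0.0056 with limma-voom. Leaving out each line gave -0.78 to 0.55, or -0.54 to 0.60 with the block, with -0.25 without A1471. Ccl2 with PD173074 against DMSO was -0.03, 0.93 with the block and 1.22 with limma-voom, and leaving out each line gave -0.21 to 1.62, or -0.014 to 1.65 with the block, with 1.38 without A1129. With the block 10 of the 18 passed the threshold that had not done so, and the cause was not tested. These were the 5 ligands called against DMSO (54.8% of all genes) and Cxcl10 against Crizotinib (53.4%). The rest were Cxcl12, Ccl5 and Cx3cl1 against PD173074 (39.8%) and Cxcl12 for the departure (16.2%). The 18 do not hold every ligand in every comparison, so this tally is a description only. Leaving out 1 line moved other values by over 1.5 times. For the combination against DMSO, Cxcl16 ran from 0.91 (without A1005) to 2.13 (without A1129), Cxcl10 from 0.77 (A1471) to 1.82 (A1129), Ccl2 from 0.95 (A1471) to 1.77 (A1005), Cxcl2 from -2.28 (A1005) to -0.33 (A1129) and Cxcl1 from -0.83 (A1005) to -0.33 (A1129). With the block these ranges were 1.006 to 2.18, 0.30 to 1.80, 0.57 to 2.01, -1.96 to -0.37 and -0.98 to -0.19. Cx3cl1 against PD173074 ran from 0.54 (A1005) to 1.42 (A1471), and Cxcl5 with PD173074 against DMSO from 0.39 (A1471) to 1.25 (A1005). With at least 10 counts in every library, 7 of the ligands could be tested, and 11 of the 18 values could be formed.

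For the combination against DMSO the number of all genes called was 1990 in the unpaired fit, 7578 with the block, 3032 with DESeq2, 1160 without a filter, 594 from the groups compared alone, and 2021, 324 and 120 without A1005, A1129 and A1471. Against Crizotinib and against PD173074 it was 1823 and 660, with the block 7389 and 5506, and with DESeq2 2930 and 1551. For the departure from additivity it was 127, with the block 2241, with DESeq2 459, without a filter 66 and 0 with any line left out. Without a filter 1146 and 401 genes were called against Crizotinib and PD173074, and from the groups compared alone 616 and 117. Leaving out each line gave 109 to 1835 and 60 to 627. For PD173074 against DMSO the count was 0, with the block 296 and with DESeq2 17, and for Crizotinib 0, 0 and 1. A prior count of 0.5 turned no log2 change within a line, and moved Cxcl12 with the combination from 1.41 to 2.93 in A1005 and from 0.64 to 1.70 in A1471. Depth limits Cxcl12 in A1005 and A1471 and Ccl7 in A1129 and A1471, where a few counts decide the ratio.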

Other observations

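The gene closest in log2 CPM profile to each ligand over the 12 libraries, among all genes tested, was Ptges2 for Cxcl1 (r = 0.965), Btbd19 for Cxcl2 (0.940), Ifi205 for Cxcl5 (0.967) and B4galt5 for Cxcl12 (0.989). It was Tmbim4 for Cxcl16 (0.937), Bmp4 for Ccl2 (0.977), Slc38a10 for Ccl5 (0.967), Oas1g for Ccl7 (0.987) and Mtch1 for Cx3cl1 (0.970). After centring each line these 9 coefficients were 0.915, 0.879, 0.818, 0.985, 0.903, 0.926, 0.879, 0.876 and 0.768, in the order given. The libraries share line and depth, and the genes were picked as the highest of all coefficients, so the values describe likeness in these libraries only.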
